A study of Mus musculus with 2 samples.

Results

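The Hox clusters are 4 runs of homeobox genes, HoxA, HoxB, HoxC and HoxD, and their 39 protein-coding members were set against the chromatin domain boundaries of mouse olfactory sensory neurons. Members were all protein-coding genes of the GENCODE M21 annotation whose symbol is Hoxa, Hoxb, Hoxc or Hoxd followed by digits, 39 of 21755 protein-coding genes on the autosomes and X. HoxA held 11 of them, HoxB 10, HoxC 9 and HoxD 9. The data were in situ Hi-C, a method that ligates and sequences DNA ends lying close together in the nucleus. Per the labels, 2 biological replicates of 170000 and 220000 cells were fixed with 1% formaldehyde and cut with DpnII. The cells were mature olfactory sensory neurons expressing Olfr1507 (MOR28), an odorant receptor gene. They were sorted by GFP from olfactory epithelium, and the mice were 129P2/OlaHsd adults of both sexes carrying a MOR28-GFP allele, with no treatment and no other cell type in the labels. All cells therefore share the reporter allele, and there is a single group.

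The authors combined both replicates in 1 matrix and deposited a single list of 7367 boundaries, each 5000 bp wide, with a class (4052 strong, 3315 weak) and a strength. The strength is a score of the authors, with no stated scale, that ran from 0.20 to 4.26 with a median of 0.563, and strong boundaries began at 0.50. No value below has a replicate error or a test, since the pooled list keeps no value per replicate, and the depth behind each boundary is unknown. A boundary list holds no expression values, so the labelled cell type could not be checked against its markers.

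Hox genes encode transcription factors that give cells their position along the body axis. Within each cluster the genes lie in the order in which they act along that axis, with low paralog numbers anterior (towards the head) and high numbers posterior. In embryos the clusters are flanked by long stretches of DNA that hold enhancers, and at HoxD enhancers on the posterior side act on the posterior genes and enhancers on the anterior side on the anterior genes. The zinc finger protein CTCF, together with cohesin, marks many domain boundaries in mammals, and boundaries inside Hox clusters have been described in embryonic tissue. The comparison here is where the boundaries of mature neurons lie relative to each Hox gene.

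The sequences at the HoxD and HoxB boundaries are shown first, because these are the boundaries that lie at or between Hox genes. The CTCF core was searched as CCANNAGNNGGC on both strands of GRCm38, and the matches are given 5′ to 3′ on their own strand with the core in capitals and 9 flanking bases on each side. The HoxD boundary that overlaps Hoxd13 had a match on either side of its interval. The match on the plus strand at chr2:74662106-74662135 lay between the Evx2 and Hoxd13 gene models, 5.38 kb from the boundary midpoint on the Evx2 side. The match on the minus strand at chr2:74673169-74673198 lay between the Hoxd13 and Hoxd12 gene models, 5.68 kb from the midpoint.
Evx2 to Hoxd13, plus strand: cctctggttCCAAAAGCTGGCcaagtacga
Hoxd13 to Hoxd12, minus strand: gccaaacgcCCAGGAGATGGCgagcgtgct
The boundary inside HoxB had a match on the plus strand at chr11:96262652-96262681, 10.2 kb from its midpoint on the Hoxb9 side. A match to a stricter form of the pattern lay beyond the window, between Mir196a-1 and Hoxb9, on the minus strand at chr11:96265866-96265895.
Hoxb13 to Hoxb9, plus strand: gagaccaggCCAGCAGTGGGCtgggagcca
Mir196a-1 to Hoxb9, minus strand, stricter form: agccctgtcCCACTAGGGGGCcctagaagg
The stricter form asks in addition for C or G and then C or T before the AG, and for A or G and then G or T after it.

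The boundaries that close HoxC on both sides, and the boundary that closes HoxD on its anterior side, also carried a match to the stricter form, each on the minus strand. At HoxC they lay at chr15:102753552-102753581 on the posterior side and at chr15:103178355-103178384 on the anterior side, and at HoxD at chr2:74964530-74964559. Of these, the anterior HoxC match lay on the cluster side of its boundary midpoint, by 4.13 kb, and the other pair lay on the far side, by 3.93 kb at HoxC and 2.04 kb at HoxD.
HoxC posterior closing boundary: agtggaaagCCACCAGGGGGCagaatcaag
HoxC anterior closing boundary: ttcacactgCCAGCAGAGGGCaacacgcac
HoxD anterior closing boundary: aaggagcctCCAGCAGGGGGCacccttttg

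The Hoxd13 promoter lay inside a boundary interval. It is shown from 250 bases before to 50 after the RefSeq start (GRCm38.p6, chr2:74667975-74668274, plus strand), with every CG dinucleotide in capitals, the site of DNA methylation in mammals.
Hoxd13 promoter: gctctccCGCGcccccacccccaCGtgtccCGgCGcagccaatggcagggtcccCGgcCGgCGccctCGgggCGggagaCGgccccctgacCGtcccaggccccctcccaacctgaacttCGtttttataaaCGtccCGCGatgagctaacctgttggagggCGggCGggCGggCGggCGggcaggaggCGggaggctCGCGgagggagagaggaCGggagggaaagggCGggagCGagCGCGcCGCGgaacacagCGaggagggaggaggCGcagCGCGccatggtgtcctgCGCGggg
These 300 bases held 37 CG dinucleotides, at the 94.3rd percentile of 32412 RefSeq promoters, and had a GC content of 74.3%, at the 95.5th percentile. They held neither the CTCF core pattern nor GATC, the site that DpnII cuts. RefSeq promoters matched 22 of the 39 Hox genes, with 24 sequences. Their median was 14.5 CG dinucleotides against 7 over all promoters, and 20 of the 24 lay above that median, as did 49.1% of all promoters. The Hoxa13 promoter was denser in CG than that of Hoxd13, with 45 dinucleotides and a GC content of 81.0%, and lay far from any boundary. No Hox promoter held the CTCF core pattern, which 2.45% of all promoters hold.

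Only HoxD had Hox genes at a boundary. The start sites (TSSs) of Hoxd13, Hoxd12 and Hoxd11 lay in the interval of 1 boundary widened by 10 kb on each side, the window used here for a gene at a boundary. These 3 of 39 Hox genes are 7.69%, against 13.0% of all protein-coding genes (2827 of 21755). The 3 genes share that boundary, so they are a single observation. It lies at chr2:74665001-74670000, is strong with a strength of 1.22, and ranked 1212 of 7367. Its interval began 3309 bp before the Hoxd13 TSS and covered 1691 of the 3290 bp of Hoxd13, a gene expressed in the most posterior structures and the tips of the limbs. Hoxd13 began 0.81 kb from the boundary midpoint, Hoxd12 7.51 kb and Hoxd11 12.1 kb, the last only 443 bp inside the end of the window. Hoxd10, the next gene, began 24.4 kb away, 11.9 kb beyond the window. With 25 kb added in place of 10, Hoxd10 and Hoxb9 joined, for 5 of 39 Hox genes against 25.0% of all protein-coding genes, and with no added window Hoxd13 alone remained. At strong boundaries alone, the same 3 of 39 Hox genes (7.69%) stood against 8.39% of all protein-coding genes.

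By midpoint, all 9 HoxD genes lay on the anterior side of this boundary, in an interval of 295 kb that also held Mtx2, a gene for a mitochondrial import protein, and Gm28230. Evx2, a homeobox gene next to Hoxd13, lay on the other side, 7.94 kb from the midpoint. Lnpk, which encodes an endoplasmic reticulum protein, lay on that side too, 88.1 kb from it. The interval is wider than the distance from Hoxd13 to the midpoint, so the side of Hoxd13 cannot be resolved from the list. The window of this boundary held 4 protein-coding TSSs, those of Evx2, Hoxd13, Hoxd12 and Hoxd11. At least 4 were found at 22 of 7367 boundaries (0.299%). All but Evx2 are Hox genes by which this boundary was picked, so the count restates how closely they lie. At least 1 protein-coding TSS, as Evx2 alone would give, was found at 2145 boundaries (29.1%). From Hoxd9 to Hoxd1 the distance to the same boundary ran from 30.2 kb to 95.5 kb, so that in HoxD it increased from paralog 13 to paralog 1 throughout, except that Hoxd3 and Hoxd4 begin together at 44.4 kb. That shared start is one of gene models, which for both genes begin far upstream of the coding sequence. Hoxd8 began 37.1 kb away. Between strong boundaries alone, HoxD lay in an interval of 920 kb, at the 83.0th percentile of intervals so defined.

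**Figure D1:**
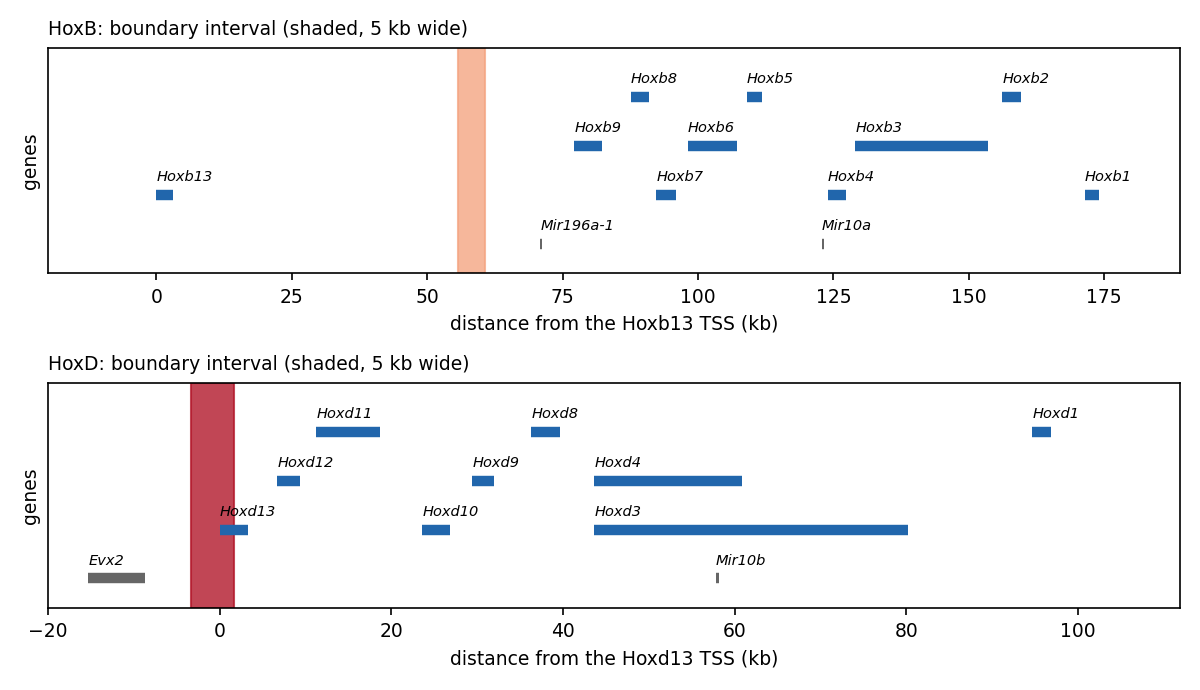
Gene models of HoxB (top) and HoxD (bottom) as bars against distance from the Hoxb13 or Hoxd13 TSS in kb, with the 5 kb boundary interval shaded (light for weak, dark for strong); the rows only keep labels apart. The weak HoxB boundary lies in the gap between Hoxb13 and Mir196a-1, and the strong HoxD boundary covers the start of Hoxd13.

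HoxB was the only cluster with a boundary midpoint between its outermost genes. That boundary, at chr11:96250001-96255000, was weak with a strength of 0.328, at the 26.2nd percentile of the list. It overlapped an exon of the noncoding gene Gm53 and had no protein-coding TSS in its window. Hoxb13 lay on its posterior side, 58.2 kb away, and the other 9 genes lay on its anterior side. The nearest of them was Hoxb9 at 19.0 kb, followed by Hoxb8 at 29.4 kb, Hoxb7 at 34.1 kb, Hoxb6 at 40.0 kb and Hoxb5 at 50.8 kb. Hoxb4, Hoxb3, Hoxb2 and Hoxb1 followed at 65.8, 70.8, 98.0 and 113 kb, Hoxb3 by a gene model that starts far upstream of its coding sequence. Hoxb13 and Hoxb9 are 74.0 kb apart, which is the longest gap between neighbouring genes in the 4 clusters. The next longest in HoxB was 12.1 kb, and the longest in HoxA, HoxC and HoxD were 11.9, 15.8 and 14.5 kb.

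Hoxb13, which acts in the tail and the prostate, thus shared its interval with no other Hox gene. That interval was 235 kb long, at the 41.2nd percentile of all 7347 intervals between neighbouring boundaries, and also held Gip, Snf8, Ube2z, Atp5g1, Calcoco2 and Ttll6. The interval of Hoxb9 to Hoxb1 was 480 kb long, at the 81.0th percentile, and its only other protein-coding TSS was that of Skap1, a gene for an adaptor protein of T cells. The weak boundary that closed the Hoxb13 interval had a strength of 0.410 and lay 177 kb from the cluster, with the TSSs of Gip, which encodes a gut hormone, and Igf2bp1, which encodes an RNA-binding protein, in its window. The Hoxb9 to Hoxb1 interval was closed inside Skap1, 364 kb from the cluster, by the strongest boundary near any Hox cluster (strength 1.95, rank 261). Between strong boundaries alone, Hoxb13 was not separated, and all 10 HoxB genes lay in 1 interval of 850 kb, at the 81.0th percentile of such intervals.

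The miRNA genes of HoxB lay on the anterior side of the inner boundary, and that of HoxD in the interval of the Hoxd genes. Mir196a-1 began 12.7 kb from the inner HoxB boundary, 10.2 kb past the end of its interval and so just outside the window, on the side of Hoxb9. Mir10a lay on the same side at 64.7 kb, and Mir10b lay 58.6 kb from the Hoxd13 boundary. The mature miRNAs are shown from RefSeq with the seed, bases 2 to 8, in capitals, because the family members fall in different clusters.
mmu-miR-196a-5p (HoxB and HoxC): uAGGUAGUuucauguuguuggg
mmu-miR-196b-5p (HoxA): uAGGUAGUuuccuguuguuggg
mmu-miR-10a-5p (HoxB): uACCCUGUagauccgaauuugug
mmu-miR-10b-5p (HoxD): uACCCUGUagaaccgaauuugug
mmu-miR-615-3p (HoxC): uCCGAGCCugggucucccucuu
The miR-196 members share a seed and are known to repress Hox mRNAs such as that of Hoxb8, and miR-196a-5p and miR-196b-5p differ by A12C, counted from the 5′ end. The miR-10 members share another seed and differ by U12A. In HoxA, Mir196b lay 188 kb from the nearest boundary, and in HoxC, Mir196a-2 lay 209 kb and Mir615 168 kb from it. None of the 6 miRNA genes lay in a boundary window, as 13.0% of all protein-coding TSSs did. The share over all miRNA genes was not computed, and with so few genes a count of none says little.

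HoxA lay whole in a single interval of 535 kb, at the 85.3rd percentile. Its 11 genes had the same nearest boundary, and Hoxa13, at 218 kb, lay farthest from it. Hoxa2 lay at 122 kb, Hoxa4 at 149 kb, Hoxa5 at 162 kb and Hoxa6 at 166 kb, and Hoxa7, Hoxa9, Hoxa10 and Hoxa11 lay at 179, 189, 198 and 203 kb. Hoxa3 lay at 171 kb by a gene model that starts far upstream of its coding sequence. The nearest boundary, on the anterior side between HoxA and Skap2, had a strength of 0.221, the lowest near any Hox cluster, at the 5.54th percentile. The boundary that closed the interval on the posterior side, 317 kb past Hoxa13 in an intron of Hibadh, was weak as well, with a strength of 0.285. Between strong boundaries alone, HoxA lay in an interval of 1905 kb, at the 95.0th percentile of such intervals.

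By boundary midpoint, HoxA and HoxD thus differed in where their Evx neighbour lay. Evx1, 52.6 kb past Hoxa13, shared the interval with all 11 HoxA genes. Evx2, 8.75 kb past Hoxd13, had the midpoint of the strong boundary between its TSS and that of Hoxd13. The interval of that boundary overlaps Hoxd13, so a separation of Evx2 from Hoxd13 itself is not resolved. The HoxA interval also held the noncoding genes Halr1 on the anterior side, Hottip next to Hoxa13, and Hotairm1 and Hoxaas3 inside the cluster. With 14 protein-coding TSSs it lay at the 97.5th percentile of intervals for that number, against a median of 2. The HoxD interval held 11 (95.7th percentile) and those of HoxC and of Hoxb9 to Hoxb1 10 each (94.6th percentile). That of Hoxb13 held 7 (88.7th percentile). Without Hox genes the counts were 2 at HoxD (47.7th percentile) and 1 each at HoxC and Hoxb9 to Hoxb1 (22.1st percentile). At Hoxb13 the count was 6 (85.1st percentile). Except at Hoxb13, the full counts thus mostly restate how closely the Hox genes lie.

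HoxC also lay whole in 1 interval, of 425 kb at the 76.7th percentile, and it was the only cluster closed by strong boundaries on both sides. On the posterior side, 164 kb before Hoxc13, the boundary had a strength of 1.43 and ranked 784. On the anterior side, 146 kb past Hoxc4, it had a strength of 1.04. Its interval was therefore the same between strong boundaries alone, where 425 kb lay at the 53.1st percentile. Neither interval overlapped an annotated gene. The nearest protein-coding TSSs were those of Calcoco1, across the boundary at 35.3 kb, and of Smug1, which encodes a DNA repair enzyme and lay inside the HoxC interval at 15.4 kb. Cbx5, which encodes the heterochromatin protein HP1 alpha, lay across the anterior boundary.

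The HoxC genes were the farthest from any boundary as a group, with a median of 192 kb and a range of 164 to 209.9 kb. Hoxc13 and Hoxc4, at the ends, lay 164 kb from their nearest boundaries, Hoxc12 179 kb, Hoxc6 184 kb and Hoxc11 197 kb. Hoxc8, Hoxc9, Hoxc10 and Hoxc5, in the middle by gene start, lay at 192, 206, 209 and 209.9 kb. The gene models of Hoxc4, Hoxc5 and Hoxc6 start far upstream of their coding sequences, so their distances and the longest of the range depend on the models. Hotair, a noncoding gene between Hoxc12 and Hoxc11, lay 190.2 kb from the nearest boundary.

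**Figure D2:**
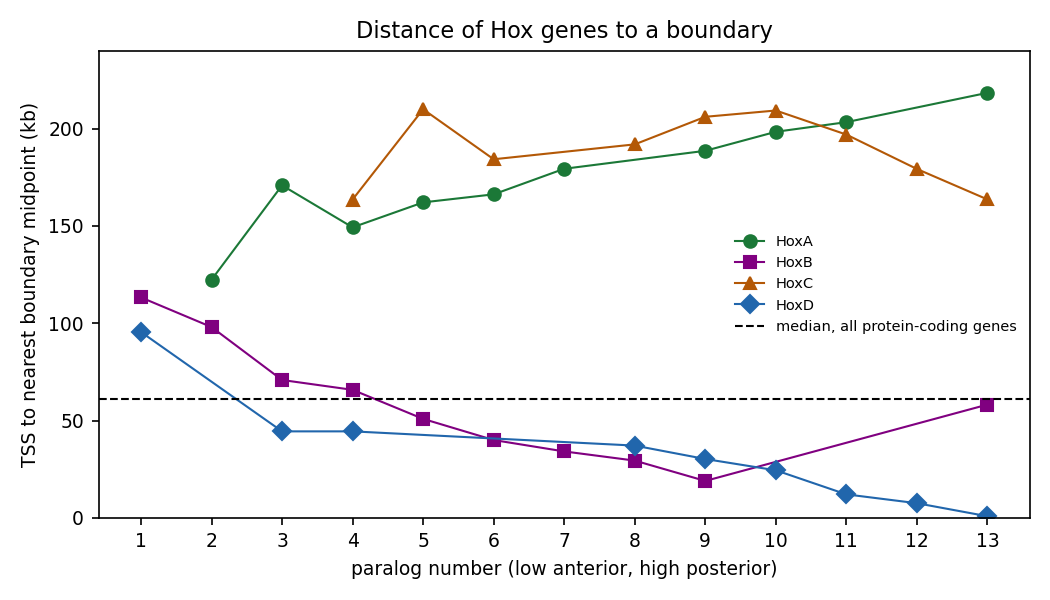
Distance in kb from the TSS of the individually reported Hox genes to the nearest boundary midpoint, against paralog number, with a line per cluster and a dashed line at the median of all protein-coding genes (61.1 kb). HoxA and HoxC lie above the dashed line throughout, and HoxD falls to 0.81 kb at paralog 13.

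Over all 39 Hox genes the median distance to the nearest boundary was 116 kb (0.81 to 218 kb), against 61.1 kb over all protein-coding genes (quartiles 27.5 and 111 kb). By cluster it was 171 kb in HoxA, 54.5 kb in HoxB, 192 kb in HoxC and 30.2 kb in HoxD. The Hox genes beyond 100 kb were 21 of 39, against 28.6% of all protein-coding genes, and those beyond 50 kb were 27 of 39, against 57.8%. The 21 comprised all 11 HoxA and all 9 HoxC genes and Hoxb1. The median Hox gene lay in an interval of 480 kb, against 280 kb for all protein-coding genes. All Hox genes but Hoxb13 lay in intervals longer than the genome's median of 265 kb, as did 53.6% of protein-coding genes. Genes of a cluster share their intervals, so these medians describe 5 intervals and not 39 independent positions.

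**Figure D3:**
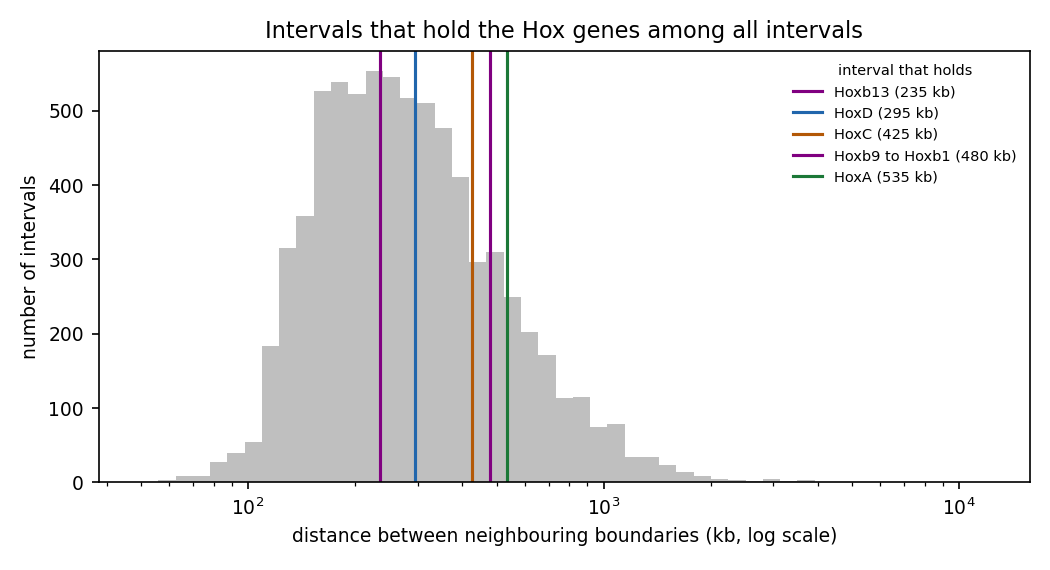
Histogram of the distances between neighbouring boundary midpoints over the whole list (kb, log scale), with vertical lines at the 5 intervals that hold Hox genes. The lines lie at 235 to 535 kb, and the line for Hoxb13 alone is below the median of 265 kb.

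Within 500 kb on each side of the clusters there were 17 boundaries, 1 inside HoxB, 8 on posterior flanks and 8 on anterior flanks. HoxA had 3, HoxB 5, HoxC 5 and HoxD 4. At the mean density of their chromosomes, the same lengths would hold 3.13, 4.02, 3.15 and 3.35, or 13.7 in all, and the clusters themselves 1.52. Of the 17, 8 were strong (47.1%, against 55.0% of the list), and their median strength was 0.410 against 0.563 over the list. Apart from those already named, Itga5, which encodes an integrin subunit, held the strongest one beside HoxC, with a strength of 1.93 and its TSS at 4.26 kb. Strong boundaries also lay in Skap2 beside HoxA (0.956), in B4galnt2 beside HoxB (0.855), and in a stretch without genes beside HoxD (0.561). The remaining weak ones lay in Copz2 beside HoxB (0.298), in Prr13 (0.326) and Atf7 (0.392) beside HoxC, and beyond Mtx2 beside HoxD, at 0.385 for the boundary that closed the HoxD interval and 0.282 for the one after it.

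**Figure D4:**
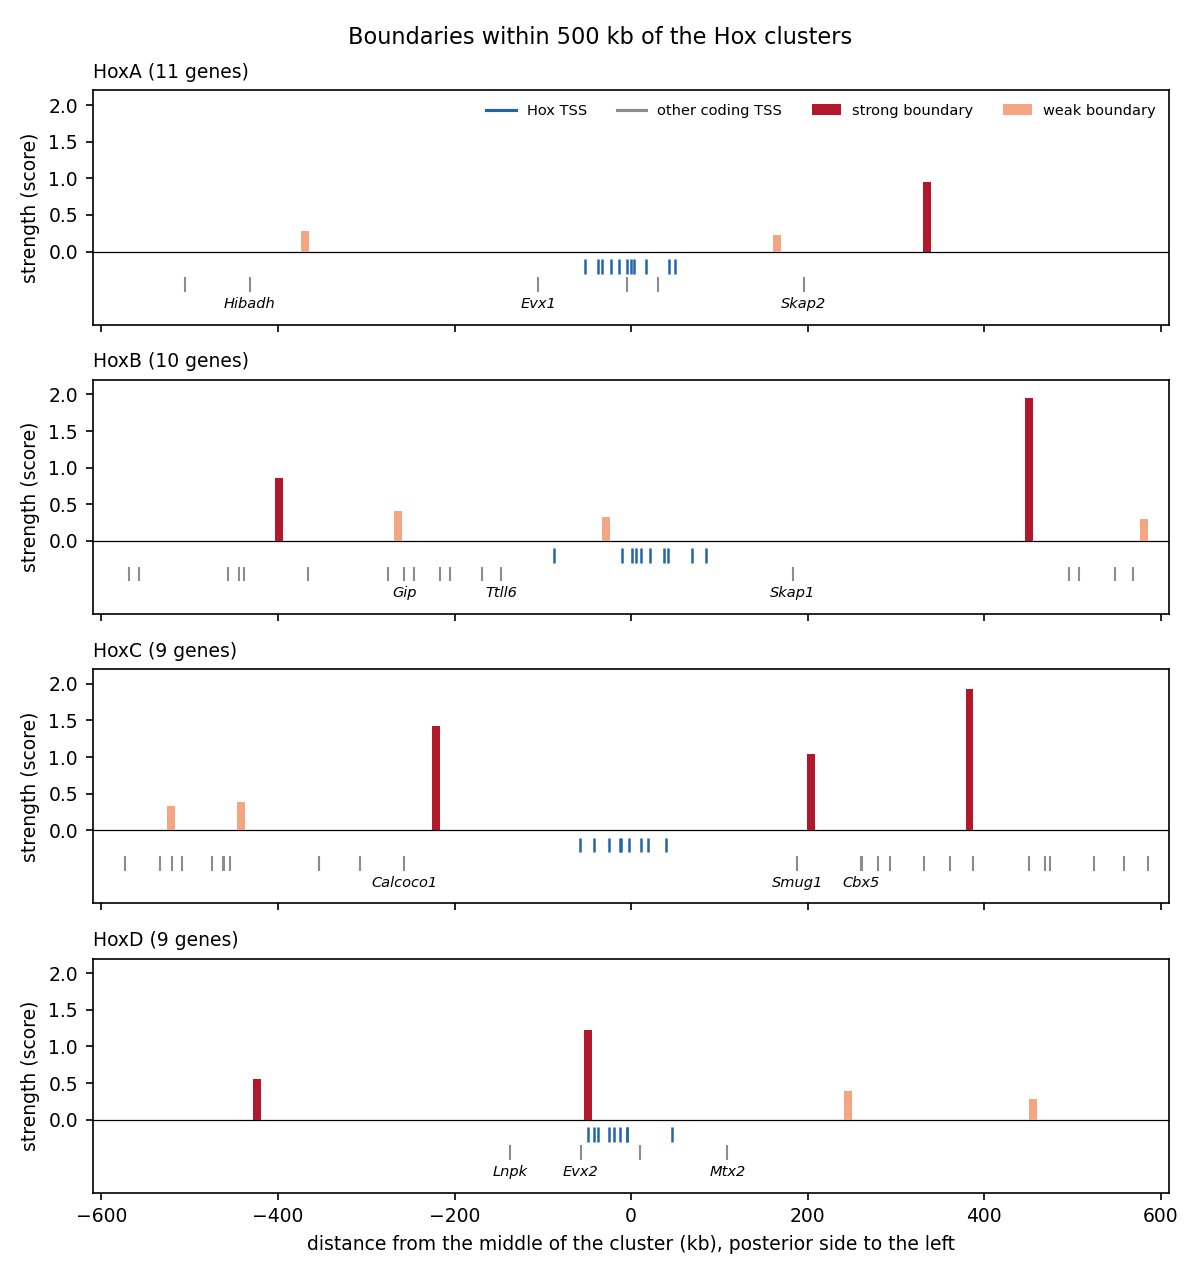
Boundaries within 500 kb of each Hox cluster as bars of strength (score) against distance from the middle of the cluster in kb, turned so that paralog 13 is on the left; ticks below mark the TSSs of Hox genes and of other protein-coding genes. HoxA has weak boundaries nearest on both sides, HoxC strong ones, and HoxD a strong one at its posterior end.

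**Figure D5:**
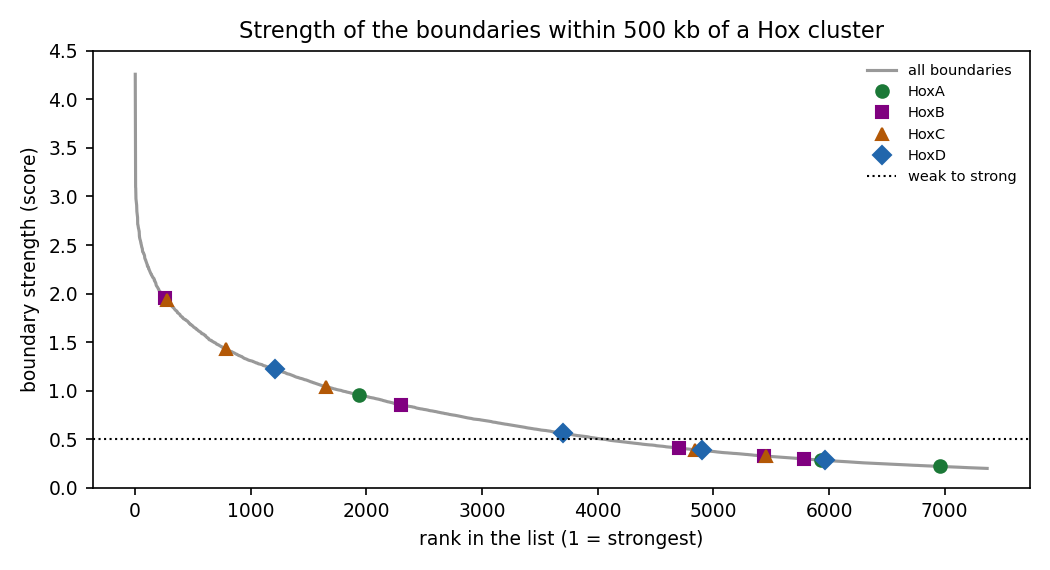
Strength (score) of all 7367 boundaries against rank in the list, as a line, with the 17 boundaries near Hox clusters as points by cluster and a dotted line where the class changes from weak to strong. The points reach from rank 261 beside HoxB to the weak end of the list beside HoxA.

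A match to the CTCF core pattern lay in the window of 16 of these 17 boundaries (94.1%), against 76.0% of all boundaries. The exception was the strong boundary in Skap2. The stricter form matched at 6 of 17 (35.3%), against 23.9% of all boundaries, once at each: the 3 printed above, the B4galnt2 and Copz2 boundaries beside HoxB and the outer posterior boundary beside HoxD. It had no match at the boundary that overlaps Hoxd13, at the inner HoxB boundary or at any boundary beside HoxA. Of the 45 matches to the core pattern, 25 lay in repeats as soft-masked in the reference (55.6%), as did 55.9% of matches genome-wide. None of the 6 stricter matches lay in a repeat, against 17.6% genome-wide. Between the outermost Hox genes, the core pattern occurred 33 times, at 6.71 per 100 kb against 5.50 genome-wide. HoxB had 18 of them, at 10.3 per 100 kb, and HoxD had 2, at 2.07 per 100 kb. Repeats held 7 of the 33, all in HoxB, and the 11 HoxB matches outside repeats came to 6.32 per 100 kb, against 6.65 in HoxA and 5.18 in HoxC, whose matches all lay outside repeats. The only stricter match inside a cluster was the one beside Mir196a-1. The stricter form thus occurred at 0.203 per 100 kb over the clusters, against 0.497 genome-wide, but 1 match is too few to show a difference. A match is a description of the letters and says nothing of whether CTCF was bound in these neurons.

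The sequence of all 4 clusters was rich in CG, and that of HoxA, HoxC and HoxD was poor in repeats. Soft-masked repeats made up 13.5% of HoxA, 14.4% of HoxD and 16.0% of HoxC, against 34.3% of the genome, at or below the 1.19th percentile of windows of the same length. HoxB held 24.7% (19.5th percentile). The CG dinucleotide occurred 30.1 times per kb in HoxA, 28.4 in HoxD, 21.5 in HoxC and 21.0 in HoxB, against 8.34 genome-wide, each above the 99.9th percentile. In HoxB the stretch between Hoxb13 and Hoxb9, which holds the inner boundary, was 34.1% repeat and had 14.5 CG per kb, whereas the stretch from Hoxb9 to Hoxb1 was 18.0% repeat and had 25.7 CG per kb. These stretches were chosen after the boundary's position was seen. DpnII sites, which set the size of Hi-C fragments, occurred 2.14 times per kb in HoxA, 2.05 in HoxD, 2.34 in HoxC and 2.45 in HoxB, against 2.51 genome-wide. HoxD and HoxA were the clusters with the fewest sites per kb, at the 3.05th and 6.55th percentiles. What these sequence differences contribute to where boundaries were called was not tested.

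Genes that act with or on the Hox genes were read from 4 lists. Of 53 genes, 11 (20.8%) had their TSS in a boundary window, against 13.0% of all protein-coding genes, and 17 of 53 with 25 kb added, against 25.0%. Polycomb proteins, which keep Hox genes silent, gave 5 of 22: Ring1 (strength 0.769) and Rnf2 (0.969), the ubiquitin ligases of the first Polycomb complex, Pcgf2 (0.201), a partner of theirs, and Jarid2 (0.894) and Rbbp4 (0.883), which belong to the second complex. Trithorax proteins, which keep Hox genes active, gave 2 of 11, Ash2l (0.442) and Dpy30 (0.234), shared subunits of histone H3K4 methyltransferases. TALE homeobox cofactors, which bind DNA together with Hox proteins, gave 1 of 9, Pbx3 (0.522). CTCF and cohesin genes gave 3 of 11, namely Nipbl (0.813) and Mau2 (0.354), which load cohesin, and Pds5a (0.270), which regulates it. Ctcf itself began 74.1 kb from its nearest boundary.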

How the data were processed

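Per the labels, sorted neurons of 2 biological replicates went into in situ Hi-C. The authors made 1 GRCm38 matrix from the pooled contacts and called boundaries from it, per the series' design text. The caller, the aligner and the read filters were not given in the sources used here. The deposited strength is a score of the authors, used only to describe, rank and filter boundaries within the list. Contact matrices, insulation tracks and compartment tracks were not used here.

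The list was joined to GENCODE M21 gene models and the GRCm38.p6 sequence with Python 3.11.15, numpy 2.4.6 and pandas 2.3.3. The mice are 129P2/OlaHsd, so strain differences from the reference were not covered. A TSS was the 5′ end of the gene model, and distances run to boundary midpoints. A cluster runs between its outermost gene ends, and its posterior flank lies next to paralog 13. The chromosome density is all boundaries of the chromosome over its length. Percentiles of cluster sequence are among tiled windows of the same length. The join was tested on simulated data, with boundaries planted at known offsets from 200 genes. It recovered the right call, at a boundary or not, for 200 of 200.

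Named genes were the Hox members (1 of the 39 enters the counts and medians and is not reported individually here), a list of neighbours, the nearest protein-coding gene of each boundary and listed regulators at a boundary; genes that a boundary or an interval overlaps were named besides. The members and lists were chosen with earlier results of these data known. No test was run, since genes and boundaries are not replicates.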

Additional observations from a re-analysis of the deposited data

How the results depend on the processing

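No value has a replicate error, because the authors pooled both samples before they called boundaries. No paired analysis was possible because the list holds no value per sample, and for the same reason leaving out a replicate was not possible. Hox genes at a boundary (3) numbered 1, Hoxd13, with no added window and 5 with 25 kb added, against 3.45% and 25.0% of all protein-coding genes. It stayed at 3 with any transcript start or with strong boundaries alone (8.39% of all protein-coding genes), and was 2 from the first coding base, an alternative chosen after seeing the data because several gene models start far upstream. The count of boundaries inside clusters (1) was 2 where the outline was extended to Evx1 and Evx2 and 2 where any overlap of the widened interval counted, which brings in the Hoxd13 boundary. It was 0 with strong boundaries alone, and 0 with HoxB outlined from Hoxb9 to Hoxb1, also chosen after seeing the data. The flanking boundaries (16) were 6 within 250 kb, 31 within 1000 kb and 8 with strong boundaries alone. The mean chromosome densities were 2.83 boundaries per Mb for HoxA and HoxC, 3.05 for HoxD and 3.42 for HoxB. Counts at these densities were not computed for the other widths, so the alternatives show no excess or lack. With strong boundaries alone, the median interval of the Hox genes rose from 480 to 920 kb (480 kb over all protein-coding genes), their median distance to a boundary from 116 to 292 kb (102 kb over all), and no Hox gene lay on a posterior side. The boundaries with a CTCF match (16 of 17) were 6 with the stricter form and 17 with 25 kb added, where 91.7% of all boundaries had a match. Regulators at a boundary were 17 in place of 11 with 25 kb added.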
